A study of Mus musculus with 12 samples.

Results

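Fresh-frozen (FF) liver was compared with fresh-frozen brain in mice, within matching times after death. The 6 arrays of the comparison, of 12 in the series, were the 3 FF liver arrays and the 3 FF brain arrays, chosen by their titles. Each tissue had 1 array at 0 h, 3 h and 18 h after death. The animals were 10-week-old male BALB/c mice, an inbred laboratory strain carrying no transgene named in the labels. Tissue was taken at once after death (0 h), following 3 h during which the body lay at room temperature, or following 18 h of storage at 4 °C, so time and storage temperature changed together. Both tissues were put in RNAlater, an RNA-stabilising solution, and their RNA was labelled with the same 3' in vitro transcription kit. The other 6 arrays, from formalin-fixed paraffin-embedded (FFPE) liver and brain at the same times, were labelled with a different kit and serve here mainly as a second measurement of the tissue difference. They also entered the choice of the probe set for each gene and the tests between times. No condition had a replicate array, and the labels do not say whether arrays share an animal or which brain region was used. The p-values of liver against brain therefore measure the spread of the tissue difference over 3 times. Spread between animals cannot be separated from it, and it was not measured within any condition. The p-values of the tests over all 12 arrays rest instead on how far FF and FFPE differ in their changes with time.

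Liver parenchyma is built mainly of hepatocytes, which make most plasma proteins, detoxify drugs and hormones, dispose of nitrogen as urea and keep blood glucose steady. Brain is built of neurons, which signal through ion channels and transmitter release, and of glia, among them the oligodendrocytes that wrap axons in myelin and the astrocytes that take up transmitter. In whole tissue, fewer cells of a type and less RNA per cell cannot be told apart.

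The promoters of 4 genes are shown first, because the genes highest in liver differed in promoter sequence from the other genes measured. G6pc (glucose 6-phosphatase, the last step of glucose release), F13b (a coagulation factor subunit) and Fabp1 (the fatty acid-binding protein of liver) were high in liver, and Chgb (chromogranin B, a protein of secretory granules) was high in brain. They were chosen after their values were seen. Each window runs from 250 bases before to 50 bases after the gene's first listed start, on the + strand of GRCm38.p6, from RefSeq. The positions are chr11:101367466-101367765 for G6pc, chr1:139501457-139501756 for F13b, chr6:71199629-71199928 for Fabp1 and chr2:132781392-132781691 for Chgb. Capitals mark matches to motifs of the liver factor HNF1 (G6pc, and F13b on the other strand), of C/EBP (Fabp1), of the cyclic AMP response element (Chgb) and to the TATA box (G6pc and Fabp1, the second capitals).
G6pc: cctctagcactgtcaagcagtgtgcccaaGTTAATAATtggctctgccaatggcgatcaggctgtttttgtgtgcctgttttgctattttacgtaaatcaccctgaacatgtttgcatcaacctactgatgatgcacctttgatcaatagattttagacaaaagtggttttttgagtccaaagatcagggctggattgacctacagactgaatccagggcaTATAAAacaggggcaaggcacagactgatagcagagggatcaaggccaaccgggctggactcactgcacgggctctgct
F13b: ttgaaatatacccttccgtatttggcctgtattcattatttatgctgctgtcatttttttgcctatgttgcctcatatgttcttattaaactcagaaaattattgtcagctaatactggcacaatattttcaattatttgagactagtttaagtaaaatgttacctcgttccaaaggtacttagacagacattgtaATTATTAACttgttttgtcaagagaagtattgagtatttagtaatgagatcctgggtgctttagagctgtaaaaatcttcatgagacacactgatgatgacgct
Fabp1: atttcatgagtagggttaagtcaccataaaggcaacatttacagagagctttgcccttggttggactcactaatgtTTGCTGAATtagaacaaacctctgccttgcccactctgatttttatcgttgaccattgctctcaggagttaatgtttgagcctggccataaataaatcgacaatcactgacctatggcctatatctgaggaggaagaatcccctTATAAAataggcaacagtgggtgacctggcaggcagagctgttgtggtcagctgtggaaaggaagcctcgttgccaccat
Chgb: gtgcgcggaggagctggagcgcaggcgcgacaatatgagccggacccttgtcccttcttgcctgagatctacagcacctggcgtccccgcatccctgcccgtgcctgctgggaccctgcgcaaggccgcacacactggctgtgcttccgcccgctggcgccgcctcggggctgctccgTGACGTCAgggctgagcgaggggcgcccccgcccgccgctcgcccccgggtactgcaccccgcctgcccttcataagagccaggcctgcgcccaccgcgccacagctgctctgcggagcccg
The G6pc, F13b and Fabp1 windows held 4, 3 and 3 CpG dinucleotides, and the Chgb window held 31.

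Of 17097 genes on the array, 11854 were tested, those that reached the median of the array in 3 or more of the 6 arrays. In limma, 8483 genes differed between liver and brain at an adjusted p under 0.05, 71.6% of those tested. Of these, 3929 were higher in liver (33.1%) and 4554 higher in brain (38.4%). Because most genes passed, a passing call says little by itself, and the sizes below carry more. At least 4-fold differences were called for 1095 genes higher in liver (9.24%) and 1531 higher in brain (12.9%), and at least 32-fold for 259 and 216, as folds of array values. The median difference over all genes tested was -0.03 (log2, liver minus brain). After quantile normalization it was 0.10, and the share of calls that were higher in liver was 52.4% against 46.3%, and with no filter on low values it was 51.2%, so which tissue had more calls depended on the scaling and on the filter. The 3 liver arrays and 3 brain arrays did not overlap for 9035 genes (76.2%).

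**Figure D1:**
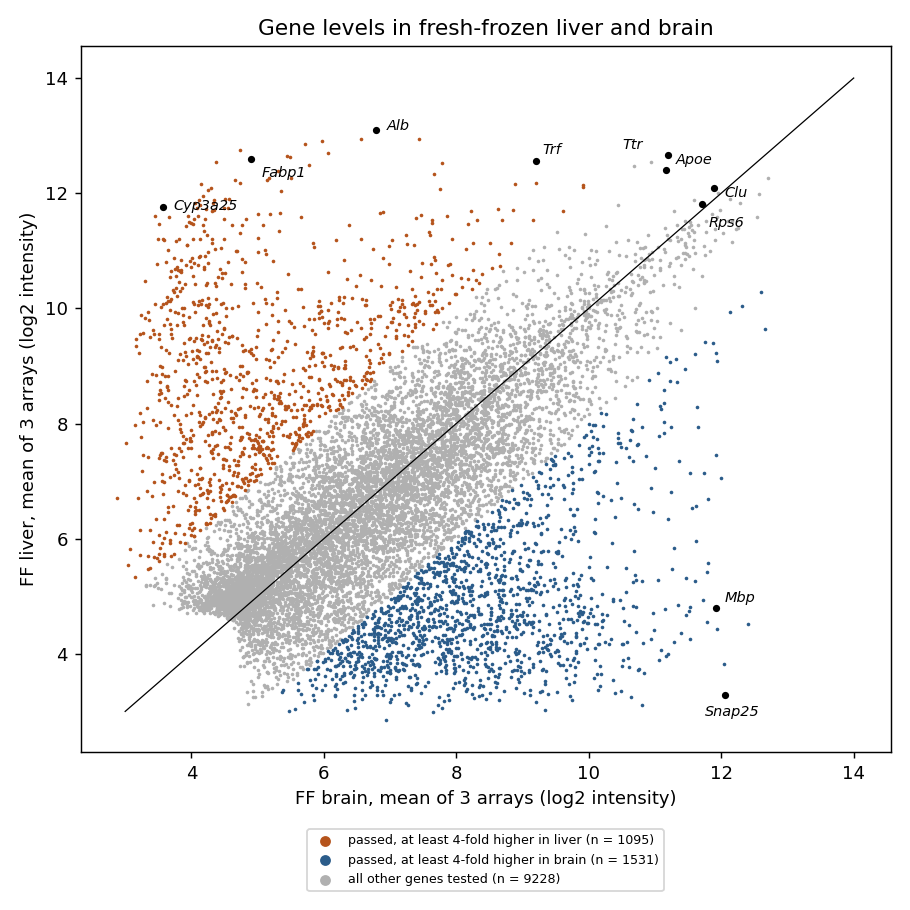
Mean log2 intensity of each tested gene over 3 FF liver arrays (vertical axis) and 3 FF brain arrays (horizontal axis), with the line of equal level. The 1095 and 1531 genes called at least 4-fold higher in liver and in brain are coloured, and 9228 other genes tested are grey.

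Among the FF arrays, the brain array at 0 h stood apart from the later brain arrays for liver transcripts. Among the 259 genes called at least 32-fold higher in liver, brain had median log2 levels of 4.30 (0 h), 3.97 (3 h) and 3.98 (18 h). In 33 of them the 0 h brain value was at least 2-fold above both later brain values. Among the 216 genes called at least 32-fold higher in brain, 0 had such a 0 h value in liver, where the medians were 4.18, 4.13 and 4.13. These 259 and 216 genes were chosen from the same arrays, so the counts are a description. Without both 0 h arrays, 7434 genes passed, and of the 2626 genes called at least 4-fold apart with all arrays, 2626 were still called in the same direction. Of 302 named genes, 15 had a difference that moved by more than 1.5-fold without the 0 h arrays, and those given below have that value beside them.

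Of the 15 largest differences toward liver, 4 were coagulation or complement genes, 3 cytochrome P450 genes, 2 other plasma proteins, 2 enzymes of amino acid breakdown and 1 (Ces3b) was on none of the 31 gene lists. Cyp3a25, a cytochrome P450 of drug and steroid metabolism, read 11.74, 11.75 and 11.78 in liver at 0, 3 and 18 h, against 4.19, 3.35 and 3.19 in brain (log2 intensity). It was higher in liver by 8.18 ± 0.21 (log2 difference ± SE, n = 3 arrays each, adjusted p = 1.42e-07). The liver values lay close together, and the brain values were highest at 0 h. Bhmt, which remethylates homocysteine, read 12.53, 12.50 and 12.59 in liver, against 5.81, 3.80 and 3.51 in brain, a difference of 8.17 ± 0.42 (adjusted p = 2.66e-06), which was 8.89 without the 0 h arrays. Fgb, the fibrinogen beta chain, read 12.14, 12.09 and 12.25 in liver, against 5.0, 3.66 and 3.78 in brain, a difference of 8.01 ± 0.27 (adjusted p = 3.45e-07). Hp, haptoglobin, which binds free haemoglobin, read 11.76, 11.82 and 11.82 in liver, against 4.74, 3.79 and 3.86 in brain, a difference of 7.67 ± 0.21 (adjusted p = 1.79e-07). In all of these the lowest liver value lay above the highest brain value. These genes were chosen for the size of their difference, and 76.2% of all genes tested had no overlap. The other members of the 15 largest were Cyp2d10, Serpina1a, Kng1, Ugt2b5, Fgg, Plg, Cyp2d9, Ces3b, Hpd, Apof and Fabp1. Without the 0 h arrays Serpina1a was at 9.11 (8.01 with them), above Bhmt and Cyp3a25 (8.50), and Fabp1 was at 8.65 (7.68 with them), so the order among these genes depended on that time. Cyp2d, Serpina1 and Ugt2b genes have near-identical relatives, so the member that gave the signal is uncertain.

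Of the 15 largest differences toward brain, 3 were on the pan-neuronal list, 3 on that of neuropeptides and interneurons, 1 (Mbp) on that of myelin and 8 on no list. Snap25, a core protein of synaptic vesicle fusion, read 3.25, 3.31 and 3.27 in liver, against 11.93, 12.11 and 12.14 in brain. It was higher in brain, with a difference of -8.78 ± 0.12 (adjusted p = 1.05e-07), and its liver values lay under the lower quartile of the liver arrays (3.95). Gad1, which makes the transmitter GABA, read 3.11, 3.15 and 3.10 in liver, against 10.80, 10.82 and 10.79 in brain, a difference of -7.68 ± 0.12 (adjusted p = 1.05e-07). The values of both genes lay close together over the times in either tissue. Mbp, the myelin basic protein gene, read 5.15, 4.61 and 4.64 in liver, against 11.71, 11.99 and 12.08 in brain, a difference of -7.13 ± 0.20 (adjusted p = 1.71e-07). Nefm, a neurofilament subunit gene, read 3.31, 3.33 and 3.31 in liver, against 10.29, 10.61 and 10.27 in brain, a difference of -7.07 ± 0.13 (adjusted p = 1.05e-07). The other members of the 15 were Cpe, Ndrg4, Pcp4, Ptn, Scg5, Rtn1, Camk2a, Chgb, Gpm6a, Hpcal4 and Bex1.

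**Figure D2:**
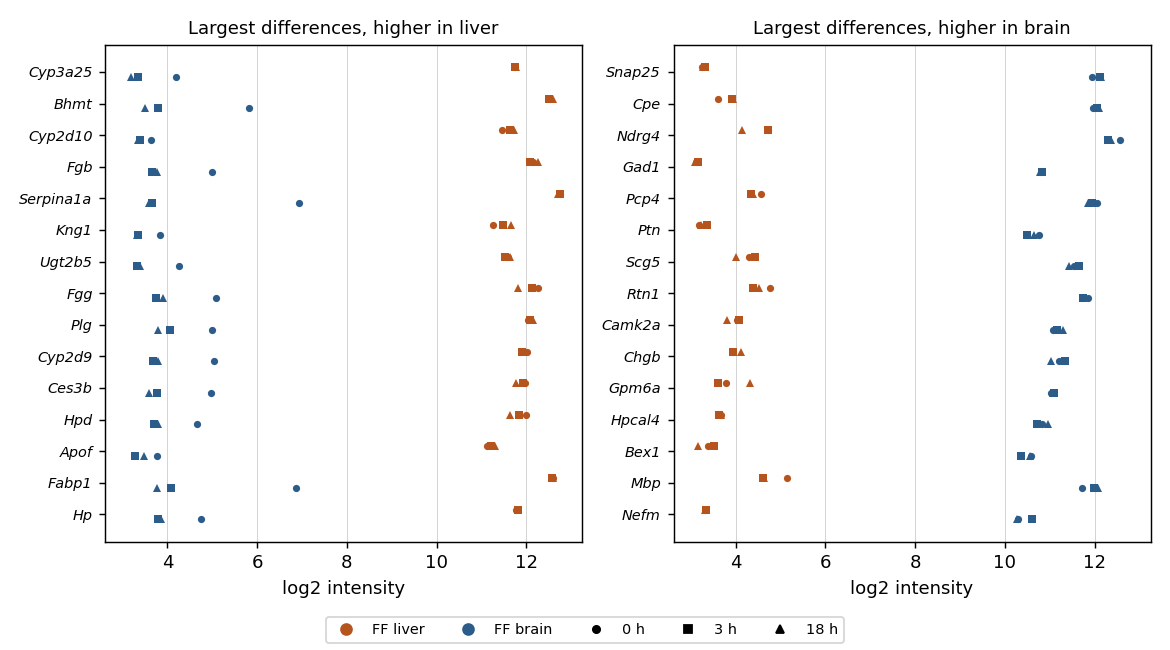
Log2 intensity in each array for the 15 genes with the largest difference in either direction (FF liver in orange, FF brain in blue, marker shape for time). The 0 h brain circle lies to the right of the later brain values for many liver genes, among them Serpina1a at 6.94 against 3.66 and 3.60.

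Many of the most different genes were near the bottom of the scale in the other tissue. Of the 259 genes past 32-fold toward liver, 181 (69.9%) were below the array median in all 3 brain arrays, and of those higher in brain, 148 (68.5%) were below it in all 3 liver arrays. No detection calls were used, so for these genes the size is a difference of array values and not a ratio of transcripts. The probe set taken for a gene also moved sizes. With the mean of its probe sets, 65 of 299 named genes moved by more than 1.5-fold, 62 of them with the same direction and call. Among the largest toward brain, Gad1 was then at -5.49, Ptn at -4.32, Camk2a at -3.15 and Mbp at -6.24. Among genes described below, the mean gave 3.79 for Hnf4a, 2.64 for Aldh1l1, 2.07 for Dnajc3, 5.96 for Car3, 3.21 for Cyp7a1 and 2.33 for Cldn1. It gave -5.97 for Gria2, -4.66 for Rbfox3, -3.23 for Rims2, -3.18 for Sult4a1, -2.23 for Slc2a3, -1.58 for Mt1 and -1.43 for Esrrg.

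Secreted proteins of plasma were high in liver nearly without exception. Many of the 31 lists are named for a tissue or cell type, and all were chosen with earlier results of these data known. The direction of a list is therefore not independent evidence. The filter adds to this. A gene below the array median in all 3 arrays of 1 tissue was tested only if it reached the median in all 3 of the other. List counts here and below stand against 33.1% of all genes tested that were higher in liver and 38.4% higher in brain. Of 24 tested plasma carrier and secreted proteins, 23 were higher in liver and 0 in brain, with a median difference of 6.03, against -0.03 over all genes tested. Of 36 coagulation and complement genes, 36 were higher in liver, with a median of 6.45. The smallest difference there was 2.07. Alb, serum albumin, read 13.09, 13.09 and 13.12 in liver, against 8.74, 6.11 and 5.53 in brain, a difference of 6.31 ± 0.56 (adjusted p = 4.76e-05), which was 7.29 without the 0 h arrays. The brain values of Alb were widely spread, highest at 0 h, while the liver values were nearly equal. Of 21 apolipoprotein and lipoprotein genes, 18 were higher in liver and 1 in brain (Abcg1, a cholesterol exporter, at -1.85), with a median of 5.88.

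Apolipoproteins that brain also makes differed less. Apoe, the main apolipoprotein of astrocytes and also of hepatocytes, read 12.48, 12.38 and 12.34 in liver, against 11.18, 11.03 and 11.30 in brain, a difference of 1.23 ± 0.13 (adjusted p = 0.00013). Clu, clusterin, read 12.12, 12.11 and 12.04 in liver, against 11.71, 12.06 and 11.91 in brain, and its difference of 0.20 ± 0.13 did not pass (adjusted p = 0.223). Ttr, the thyroid hormone carrier made by hepatocytes and choroid plexus, read 12.64, 12.65 and 12.70 in liver, against 8.68, 12.72 and 12.21 in brain. Its difference of 1.46 ± 0.70 did not pass (adjusted p = 0.0998), and it was 0.21 without the 0 h arrays. The liver and brain values of Ttr were close at 3 h but lay far apart at 0 h. Of the 14 measured genes of the choroid plexus and ependyma list, 7 were tested. Of the 6 tested besides Ttr, 4 were lowest at 0 h among the brain arrays. The share of all genes tested that were lowest at 0 h in brain was not counted. Igf2, a growth factor, read 4.31, 4.12 and 4.19 in liver, against 6.60, 7.91 and 7.51 in brain. Kcnj13, a potassium channel, read 4.49, 4.52 and 4.39 in liver, against 4.94, 7.05 and 5.60 in brain. Clic6 read 4.45, 4.49 and 4.55 in liver, against 4.79, 5.60 and 5.11 in brain. Aqp1, a water channel, read 8.07, 7.51 and 8.40 in liver, against 3.61, 4.04 and 3.82 in brain. Tmem212 and Kl did not follow this order, with 4.95, 4.93 and 5.31 for Tmem212 and 3.84, 3.74 and 3.94 for Kl in brain. The brain values of Aqp1 and Kl lay under the brain array medians of 4.67 to 4.68, so their order over the times is uncertain. Over the 14 measured choroid plexus and ependyma genes, Ttr among them, the mean log2 level was 5.09 to 5.15 in the liver arrays. It was 4.55 to 5.74 in the brain arrays, and the Ttr values themselves enter that range. The part of choroid plexus in the Ttr result was not tested.

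Enzymes of nitrogen, drug and energy metabolism followed the same order. Of 26 genes of the urea cycle and amino acid breakdown, 26 were higher in liver, with a median of 5.95. Arg1, the arginase that releases urea, read 11.30, 11.12 and 11.15 in liver, against 3.91, 3.41 and 3.42 in brain, a difference of 7.61 ± 0.13 (adjusted p = 1.05e-07). Of 27 cytochrome P450 genes, 25 were higher in liver, with a median of 5.06, and 1 was higher in brain. That gene was Cyp46a1, the cholesterol 24-hydroxylase of neurons, which read 4.84, 5.20 and 5.31 in liver, against 9.16, 9.18 and 9.14 in brain, a difference of -4.04 ± 0.14 (adjusted p = 4.57e-07). Of 22 conjugation and glutathione genes, 19 were higher in liver and 3 in brain (Sult4a1 at -4.16, Gstm5 at -2.68 and Mgst3 at -1.81). Of 23 genes of bile acid synthesis and liver transport, 22 were higher in liver and 0 in brain, with a median of 4.97. Of 25 genes of fatty acid oxidation, ketogenesis and peroxisomes, 23 were higher in liver and 1 in brain. The gene higher in brain was Oxct1, which lets tissues burn ketone bodies, at -4.36 ± 0.14 (adjusted p = 2.66e-07), with 5.37, 5.29 and 5.55 in liver, against 9.68, 9.88 and 9.74 in brain. Its other probe sets gave -6.63, -5.56 and -2.64. Of 16 genes of gluconeogenesis and glycogen, 14 were higher in liver and 1 (Pck2, at -0.81) in brain.

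Neuronal groups were higher in brain as uniformly. Of 33 pan-neuronal and cytoskeletal genes, 33 were higher in brain, with a median of -5.24. Of 32 synaptic vesicle and release genes, 31 were higher in brain and 0 in liver, with a median of -4.41. The exception was Bsn, a scaffold of the presynaptic active zone, which read 5.34, 5.40 and 4.86 in liver, against 5.59, 5.06 and 5.04 in brain (-0.03 ± 0.16, adjusted p = 0.872). With the mean of its probe sets Bsn was higher in brain at -1.10 (adjusted p = 0.000208), so the chosen probe set decided that value. Of 24 glutamate, GABA and other transmitter receptor genes, 24 were higher in brain, with a median of -4.10. Gria2, an AMPA receptor subunit, read 3.93, 3.80 and 3.66 in liver, against 10.55, 10.38 and 10.58 in brain, a difference of -6.71 ± 0.13 (adjusted p = 1.05e-07). Of 25 ion channel and pump genes, 25 were higher in brain, with a median of -3.58. Of 26 neuropeptide and interneuron genes, 23 were higher in brain and 2 in liver (Hcrt at 0.78 and Oxt at 0.45), with a median of -3.95. Mean levels in liver and brain were 5.24 and 4.47 for Hcrt and 6.58 and 6.13 for Oxt. The brain level of Hcrt lay under the brain array medians of 4.67 to 4.68.

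**Figure D3:**
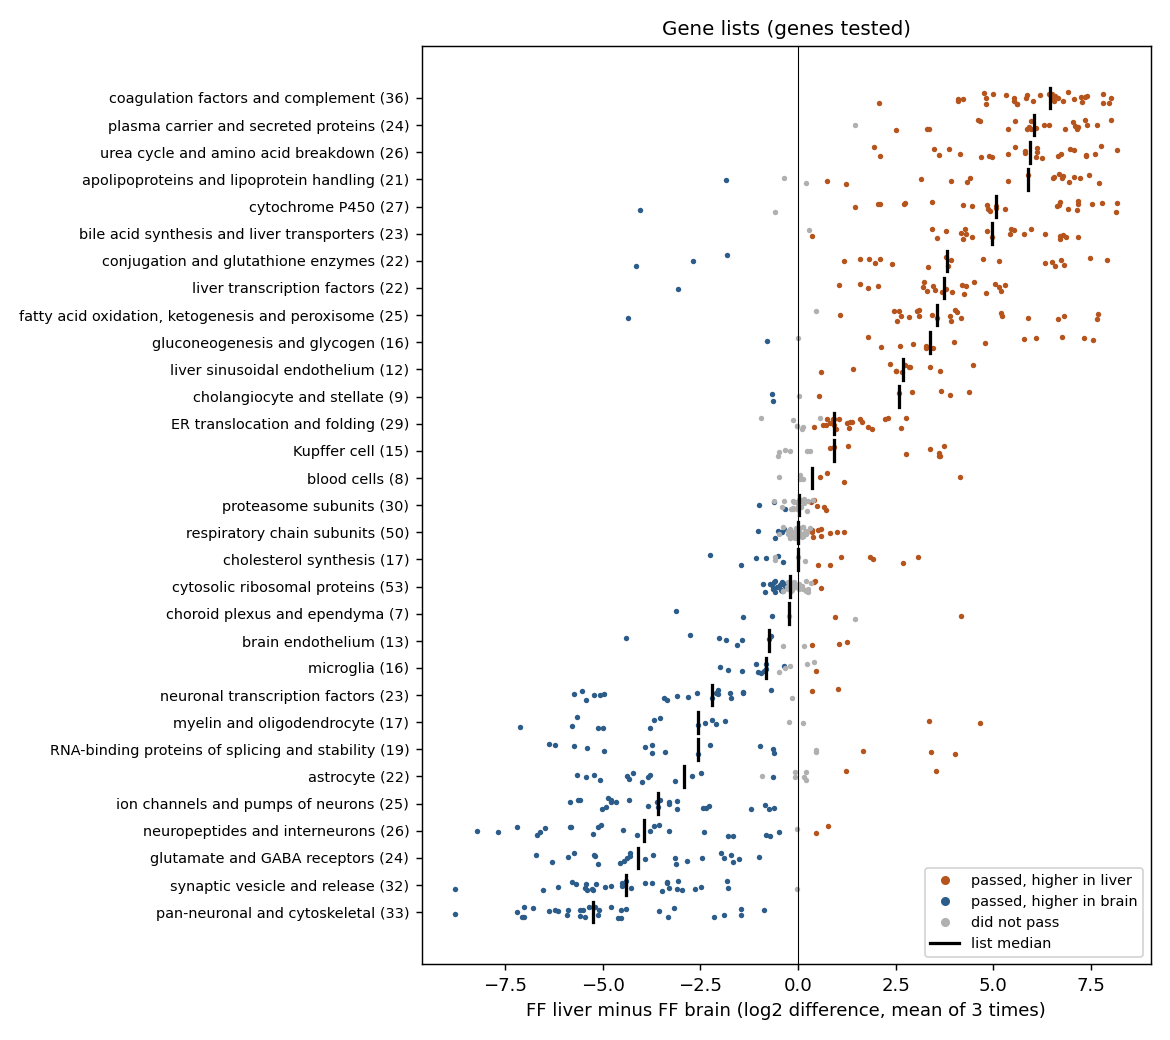
Difference FF liver minus FF brain (log2) of every tested gene in 31 gene lists, ordered by list median (black bar), coloured where the gene passed. Coagulation and complement genes lie at the top with a median of 6.45, pan-neuronal genes at the bottom with -5.24, and ribosomal, proteasome and respiratory chain genes lie close to 0.

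Glial lists were mixed. Of 17 myelin and oligodendrocyte genes, 13 were higher in brain and 2 in liver. The 2 were Gjb1, a gap junction gene that hepatocytes use as well, at 4.67, and Trf, the iron carrier transferrin, at 3.36. Of 22 astrocyte genes, 14 were higher in brain and 2 in liver, Aldh1l1 at 3.53 and Apoe. Aldh1l1, a folate enzyme often used to mark astrocytes, read 10.52, 10.39 and 10.27 in liver, against 6.80, 6.86 and 6.92 in brain (adjusted p = 5.91e-07). Gfap, the intermediate filament of astrocytes, read 4.71, 4.90 and 4.45 in liver, against 4.32, 4.88 and 4.41 in brain, and did not pass (adjusted p = 0.353). Its values lay near the array medians of 4.65 to 4.68 in both tissues, so the chosen Gfap probe set did not mark brain here.

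Lists of resident macrophages and endothelium had medians between -0.82 and 2.70. Their counts stand against 33.1% of all genes tested higher in liver and 38.4% higher in brain. Of 15 Kupffer cell (liver macrophage) genes, 9 were higher in liver and 0 in brain, with a median of 0.92. Clec4f, a lectin of Kupffer cells, read 8.36, 7.49 and 8.33 in liver, against 4.46, 4.49 and 4.36 in brain, a difference of 3.62 ± 0.21 (adjusted p = 4.83e-06). Of 16 microglia (brain macrophage) genes, 10 were higher in brain and 1 in liver, with a median of -0.82, and C1qa, C1qb, C1qc and Csf1r, which are on both macrophage lists, did not pass. P2ry12, a purinergic receptor of microglia, read 3.96, 3.68 and 3.77 in liver, against 5.68, 5.45 and 6.24 in brain, a difference of -1.99 ± 0.18 (adjusted p = 5.23e-05). Of 12 liver sinusoidal endothelial genes, 12 were higher in liver, with a median of 2.70. Mean brain levels of Stab2, Mrc1, Gpr182, Oit3, Dnase1l3 and Flt4 were 3.61 to 4.50, under the brain array medians of 4.67 to 4.68. The filter thus favoured their being tested through the liver arrays. Of 13 brain endothelial genes, 8 were higher in brain and 3 in liver, with Slco1c1, a thyroxine transporter of the blood-brain barrier, at -4.39. Of 18 measured cholangiocyte and stellate cell genes, 9 were tested. Of those, 6 were higher in liver and 2 in brain (Sox9 at -0.65 and Rgs5 at -0.67). Krt19, Krt7, Epcam, Cftr and Muc1 were on the list but not tested, so the count says little about cholangiocytes. Of 7 choroid plexus and ependyma genes, 2 were higher in liver and 3 in brain, close to the 33.1% and 38.4% of all genes tested. Of 8 blood cell genes, 4 were higher in liver and 0 in brain, against the same 33.1% and 38.4%, and the haemoglobin gene Hba-a1 did not pass (0.04 ± 0.18, adjusted p = 0.853).

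Transcription factors listed for liver and for neurons were mostly higher in the tissue they were listed for, which is not independent evidence of direction. Of 22 liver transcription factors, 21 were higher in liver, with a median of 3.73, and Esrrg, an orphan nuclear receptor, was higher in brain at -3.07. Hnf4a, a nuclear receptor that sets hepatocyte identity, read 9.80, 10.06 and 10.61 in liver, against 5.19, 5.07 and 5.08 in brain, a difference of 5.04 ± 0.19 (adjusted p = 5.75e-07). Of 23 neuronal transcription factors, 20 were higher in brain and 2 in liver (Camta1 at 1.01 and Egr3 at 0.37). Of 19 RNA-binding proteins, 14 were higher in brain and 3 in liver. Rbfox3, the antigen NeuN of neuronal nuclei, read 5.68, 5.06 and 5.97 in liver, against 11.85, 11.84 and 11.69 in brain, a difference of -6.22 ± 0.21 (adjusted p = 3.37e-07). Rbm47, an RNA-binding protein of epithelia, read 8.25, 8.18 and 8.88 in liver, against 4.50, 4.43 and 4.35 in brain, a difference of 4.01 ± 0.19 (adjusted p = 1.62e-06).

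Core machinery was close to equal. Of all genes tested, 33.1% were higher in liver and 38.4% higher in brain, and the counts here stand against those shares. Of 53 ribosomal protein genes, 3 were higher in liver and 17 in brain, the latter near the share over all genes tested, with a median of -0.20. Of 30 proteasome subunits, 5 were higher in liver and 3 in brain, and of 50 respiratory chain subunits 9 and 5, with medians of 0.03 and 0.01. Endoplasmic reticulum translocation and folding genes differed more, with 22 of 29 higher in liver and 0 in brain and a median of 0.93. Dnajc3, a chaperone of the folding stress response, was highest there at 2.76 ± 0.15 (adjusted p = 3.2e-06). Of 17 cholesterol synthesis genes, 7 were higher in liver and 6 in brain, near the 33.1% and 38.4% of all genes tested, with values between Ebp at 3.06 and Sqle at -2.25. In 352 genes (2.97%) the difference was under 0.2 in size at all 3 times. Of these, the one with the highest mean level was Rps6, at 11.81, 11.83 and 11.82 in liver, against 11.75, 11.67 and 11.71 in brain. With the mean of its probe sets Rps6 passed at 0.28 (adjusted p = 0.038). Gapdh, a glycolytic gene often taken as a constant reference, was higher in brain by a small amount (-0.72 ± 0.13, adjusted p = 0.0018), with 11.35, 11.19 and 11.38 in liver, against 12.07, 12.04 and 11.97 in brain.

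Members of one protein family often took opposite sides. Of 34 pairs written down, 23 had both members tested. Among these the liver or broad form was higher in liver in 15 and the brain form higher in brain in 22. Over all genes tested, 33.1% were higher in liver and 38.4% higher in brain. In 14 of the 23 pairs, the liver or broad form was higher in liver and the brain form higher in brain. The forms had been written down by their known tissue use, so this is not independent evidence of direction. In 2 of the pairs the second member is no brain form, since Mat2b is a regulatory subunit of methionine adenosyltransferase and Cox6a2 is the form of heart and muscle; without them the count was 13 of 21. Slc2a2, the glucose transporter of hepatocytes, read 10.51, 10.62 and 10.55 in liver, against 3.99, 3.62 and 3.71 in brain (6.79 ± 0.14, adjusted p = 1.05e-07). Slc2a3, the glucose transporter of neurons, read 4.69, 4.61 and 4.50 in liver, against 9.78, 9.75 and 9.68 in brain (-5.14 ± 0.12, adjusted p = 1.15e-07). Other such pairs were the glycogen phosphorylases Pygl (6.09) and Pygb (-3.11), the carbonic anhydrases Car3 (6.64, and 7.72 without the 0 h arrays) and Car2 (-5.32), the claudins Cldn1 (3.89) and Cldn11 (-5.11) and the cholesterol hydroxylases Cyp7a1 (4.84) and Cyp46a1 (-4.04). The calls of Ldha, Tubb6 and Dnm2, whose differences were 0.48, 0.33 and 0.37, were lost in at least 1 alternative, among them leaving out the arrays at 3 h. In 6 pairs both members were higher in brain, among them the metallothioneins Mt1 (-3.10) and Mt3 (-3.85) and the calcium pumps Atp2b1 (-3.53) and Atp2b2 (-3.58). Another Atp2b2 probe set was at -5.95, so the near-equal values of that pair depended on the probe set.

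**Figure D4:**
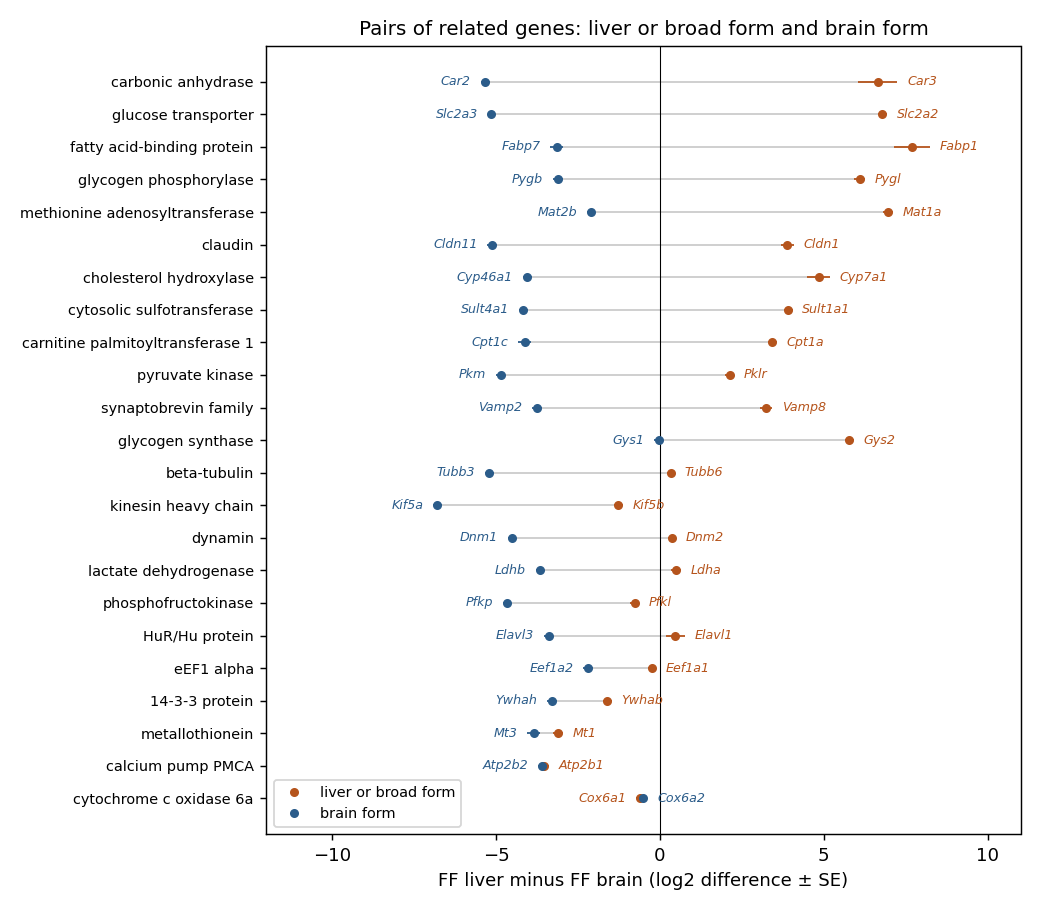
Difference FF liver minus FF brain (log2 ± SE) for 23 pairs of related genes, with the liver or broad form in orange and the brain form in blue. In 14 pairs the points lie on opposite sides of 0 and both passed; the calcium pump pair lies at -3.53 and -3.58 with the probe sets used.

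Promoter windows were matched by symbol for 9543 of the 11854 tested genes. Among 210 genes at least 32-fold higher in liver with a window, 9.52% had a ratio of observed to expected CpG above 0.6, against 45.2% of 672 genes 4-fold to 32-fold higher in liver, 72.6% of 1890 genes under 1.2-fold apart that were not called, 67.8% of all tested genes with a window and 36.4% of all 27025 promoters. The motif GTTAATNAT of HNF1, searched on both strands like those of HNF4, C/EBP and the response element, was in 7.14% and 2.08% of the first 2 sets, 0.212% of the genes under 1.2-fold apart, 0.524% of tested genes and 0.836% of all promoters. Of 50 tested genes with that motif, 29 were called at least 4-fold higher in liver. Another 7 were called higher in brain, 5 of those by at least 4-fold. Over all genes tested these shares were 9.24%, 38.4% and 12.9%. The motif CAAAGTCCA of HNF4 was in 2.38%, 1.19% and 0.37% of the same 3 sets, 0.461% of tested genes and 0.477% of all promoters, and TTGCNNAAT of C/EBP in 7.14%, 2.68% and 1.01%, against 1.66% of tested genes and 2.42% of all promoters. TATAAA on the strand of the gene, placed 45 to 15 bases before the start was in 7.14%, 3.12% and 1.48%, against 1.77% of tested genes and 2.36% of all promoters. TGACGTCA, the cyclic AMP response element, was in 0%, 0.744% and 3.28%, against 3.13% of tested genes and 1.88% of all promoters, so its share in genes under 1.2-fold apart was near that of tested genes. The median share of G and C bases was 48.67%, 57.67% and 60.33% in the same 3 sets. It was 60.67% in tested genes and 52.67% in all promoters. The motifs also differ in their bases, and the part of base composition in their shares was not tested. A match is only a run of letters and shows no binding. For the genes higher in brain by at least 32-fold and by 4-fold to 32-fold, only 77.3% and 79.1% had a window, under the 80% needed. This check is therefore void for them, and the counts toward brain among the 50 genes are not read as a result.

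The number of large differences was similar at the 3 times. At least 4-fold differences toward liver were found in 1138 genes at 0 h (9.6%), 1101 at 3 h (9.29%) and 1075 at 18 h (9.07%), from 1 array per tissue and time. Toward brain the counts were 1553, 1584 and 1573 (13.1%, 13.4% and 13.3%). The same direction and size at all 3 times was found for 931 genes toward liver and 1333 toward brain. In the model over all 12 arrays, where a time effect is what FF and FFPE share, the tissue difference at 3 h differed from that at 0 h for 2 genes (0.0169%) and at 18 h for 607 genes (5.12%), 74 with a higher and 533 with a lower liver minus brain value. After quantile normalization the count at 18 h was 288. Without adjustment 913 genes had a p under 0.05 at 3 h. Both tests share the 0 h arrays.

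The genes whose FF difference moved most belonged to different patterns. Mup3, a major urinary protein gene whose family is near-identical, read 12.98, 12.96 and 12.90 in liver, against 9.56, 6.75 and 5.98 in brain (5.52 apart, and 6.57 without the 0 h arrays), and its difference was higher at 18 h than at 0 h by 3.62 in the 12-array model (adjusted p = 5.9e-05). Among the FF arrays the change lay in brain. Saa2, a serum amyloid gene of the acute phase, read 8.22, 8.40 and 5.66 in liver, against 3.40, 3.29 and 3.34 in brain, and its difference was lower at 18 h by 2.42 (-2.42, adjusted p = 0.000128). Here the liver array at 18 h was low. Commd3 read 9.45, 8.48 and 7.0 in liver, against 8.46, 8.50 and 8.45 in brain, with a change of -2.0 (adjusted p = 0.00189), so the sign of its tissue difference was opposite at 0 h and 18 h.

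**Figure D5:**
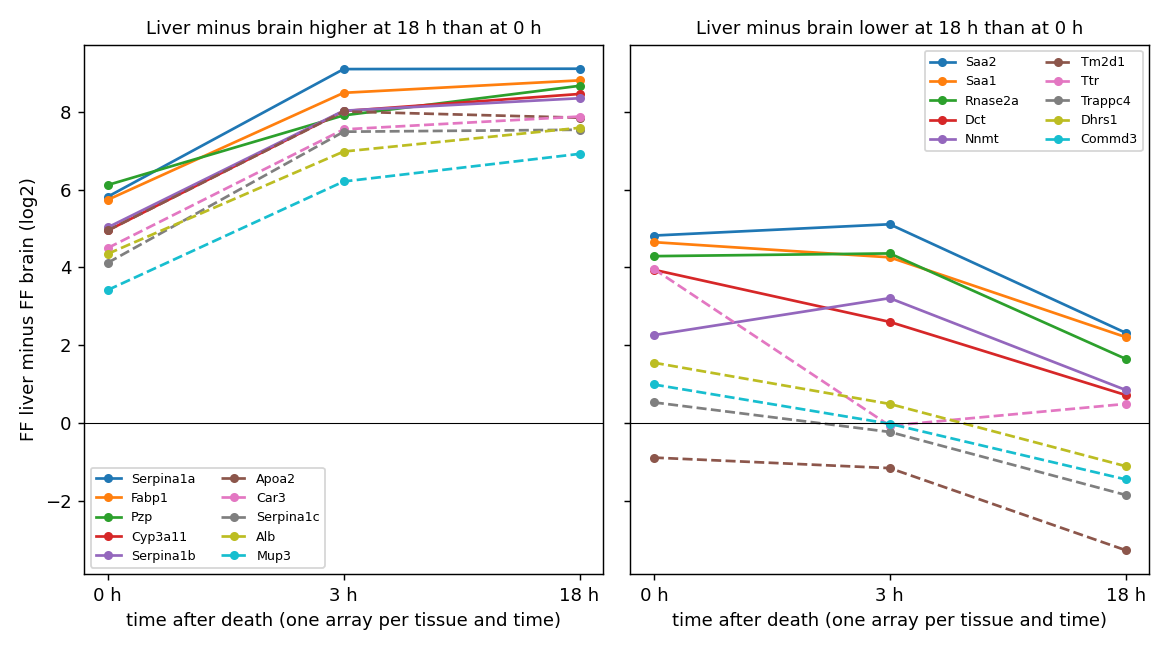
FF liver minus FF brain (log2, 1 array per tissue and time) at 0, 3 and 18 h for the 10 genes that varied most upward (left) and downward (right). On the left the lines rise after 0 h, as for Alb and Fabp1; on the right Ttr drops at 3 h and Saa1 and Saa2 drop at 18 h.

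Of the 11854 genes tested, which were chosen by their FF levels, 7434 (62.7%) had a smaller difference in size in FFPE. In limma, 6877 genes passed between FFPE liver and FFPE brain (58%), 3779 higher in liver (31.9%) and 3098 higher in brain (26.1%). Genes called in both preservations with the same sign numbered 5562, which is 65.6% of the FF calls and 80.9% of the FFPE calls, and 185 had opposite signs. For FF calls of at least 2-fold the median ratio of the FFPE to the FF difference was 0.655, a value that choosing genes by their FF size lowers. The difference itself differed between FF and FFPE for 6737 genes (56.8%), 4575 of them larger in size in FF and 2161 smaller. Preservation and labelling kit changed together, so their parts cannot be told apart. Of the largest, Slc3a1, an amino acid transporter subunit, read 8.89, 8.88 and 8.80 in FF liver, against 4.58, 4.73 and 4.90 in FF brain, with a difference of 4.12 in FF and -0.87 in FFPE (4.99 between them, adjusted p = 1.07e-08). Rims2, a presynaptic protein, differed by -5.27 in FF and -0.66 in FFPE (-4.61, adjusted p = 4.58e-08). Of the 31 lists, 23 had a smaller median in size in FFPE and 8 a larger one. Ribosomal protein genes had a median difference of -0.20 in FF and 0.71 in FFPE. Proteasome subunits had medians of 0.03 and 1.01, with 19 of 30 higher in liver in FFPE, and respiratory chain subunits 0.01 and 0.90, with 35 of 50. The medians of gluconeogenesis and glycogen were 3.37 in FF and 4.51 in FFPE, those of fatty acid oxidation 3.57 and 3.90, and those of endoplasmic reticulum folding 0.93 and 1.75.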

How the data were processed

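Gene expression was measured in liver and brain with Affymetrix mouse arrays. The authors deposited 1 log2 intensity for each probe set and array. The submitters' processing notes name RMA, which subtracts background, equalises arrays and combines probes, and Affymetrix Expression Console. Whether the arrays went through it together is not given in the sources used here.

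Of 45141 probe sets, 104 controls were left out, and 28898 had 1 gene, 551 several and 15588 none in the platform annotation. A gene with several was represented by the one brightest on average over the 12 arrays. The liver minus brain difference was fitted with limma 3.58.1 in R 4.3.3 to the 6 FF arrays with time as a block (2 residual degrees of freedom), two-sided, with Benjamini-Hochberg adjustment over 11854 genes and a threshold of 0.05. FFPE was fitted alike. Differences between FF and FFPE and between times came from 1 model of all 12 arrays (4 residual degrees of freedom). Promoter motifs were chosen after values were seen, and a form of the HNF1 motif 1 base longer, with fewer matches, was searched before the one given. Arrays have no depth, and their number limits the precision.

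The comparison, the 31 gene lists, the pairs and the tests were chosen with earlier results of these data known. Named genes are the 15 largest differences each way, up to 5 members of each list in its main direction and 4 the other way, the pairs, the 10 varying most with time each way, the 10 highest equal genes, the 5 largest FF minus FFPE values each way, and Alb, Ttr, Apoe, Clu and Gapdh. F13b, Gfap and the haemoglobin and complement C1q genes named as values fall outside it and were chosen after their values were seen. Alternatives were no block, all 12 arrays, quantile normalization, other filters, other probe set rules, trend and robust estimation, and leaving out arrays.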

Additional observations from a re-analysis of the deposited data

Results flagged for a closer look

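The liver minus brain difference differed between FF and FFPE for 6737 genes, between 3 h and 0 h for 2 genes and between 18 h and 0 h for 607 genes, each by a test of the difference itself in limma over 12 arrays. The largest positive FF minus FFPE values were 4.99 for Slc3a1, 4.67 for Bsn, 4.38 for Tubb4a, 4.31 for Tmem229a and 3.60 for Kif1a. In FF, Bsn (-0.03), Tubb4a (-1.47) and Kif1a (-1.46) were not higher in liver. Their positive values mean a larger excess in brain in FFPE. The largest negative values were -4.61 for Rims2, -4.61 for C1qtnf4, -4.49 for Cracdl, -4.40 for Hectd2 and -4.24 for Fam171a2. With the mean of probe sets, FF differences moved from -0.03 to -1.10 for Bsn and from 0.37 to -1.66 for Tmem229a. They moved to -3.23 for Rims2, -2.82 for C1qtnf4, -2.04 for Fam171a2 and -0.73 for Hectd2. Slc3a1, Tubb4a and Cracdl had 1 probe set each, and those of Kif1a gave -1.46 and -1.86. Some of these FF minus FFPE values therefore depend on the chosen probe set.

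Between 18 h and 0 h, the liver minus brain value was higher by 3.62 for Mup3, 2.19 for Serpina1b and 2.10 for Fabp1. It was lower for Ttr (-4.93), Saa1 (-2.43), Saa2 (-2.42), Rnase2a (-2.23), Dct (-2.23), Dhrs1 (-2.11), Commd3 (-2.0), Tm2d1 (-1.88) and Nnmt (-1.23). The causes were not tested.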

How the results depend on the processing

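The 8483 calls were 8609 with no time block, 9134 with all 12 arrays, 8726 after quantile normalization (4570 higher in liver, 4156 in brain), 9914 with no filter (5072 and 4842), 8227 with the mean of probe sets and 8542 with trend and robust estimation. They were 17337 with every probe set on its own (7626 and 9711), 5047 when also at least 2-fold (2084 and 2963) and 2626 when also at least 4-fold (1095 and 1531). Leaving out arrays gave 6698 to 9097 in FF, with 2913 to 4338 higher in liver and 3785 to 4759 higher in brain, and 4656 to 6819 in FFPE. With time as a block, leaving out 1 array removes its pair. Of the 2626 genes, 2625 kept their call without the 3 h arrays, and 2614 of the 2615 still tested did with the mean of probe sets. The time test at 3 h called 5 genes and that at 18 h called 288 after quantile normalization. With the mean of probe sets, Elavl1 (0.47, not passed) was -1.23 and Tmem229a (0.37) was -1.66. Of 938 genes called at least 4-fold apart that have another probe set above the median, 655 had every other one at least 2-fold the same way and 9 had one at least 2-fold the other way. The causes were not tested. The arrays without the block, the FFPE arrays left out and the lists under quantile normalization were chosen after seeing the data. Time was the block of the fit; no paired analysis was possible by replicate number because each condition has replicate number 1 alone.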
